A study of Mus musculus with 2 samples.

Results

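The cells described here are the strongest Il22 expressers among IL-23 receptor reporter cells of the mouse small intestine that had been given IL-23. They were chosen by their own Il22 reading, so the Il22 values below describe the choice and are no result. A barcode of the IL-23 library was kept with at least 500 genes, at least 3000 unique molecular identifiers (UMIs, each a counted transcript molecule) and at most 10% of UMIs in mitochondrially encoded genes. It counted as a high Il22 cell when it held 0 UMIs of Cd3d, Cd3e and Cd3g, the CD3 chains that mark T cells, and Il22 made up 5% or more of its UMIs. This gave 765 cells of the 8007 that passed the filters and the CD3 gate, which is 9.55% (8.92 to 10.2, exact binomial 95% interval), and of 21536 barcodes in the 2 libraries. They are set against the 1478 cells of the same gate with Il22 at 1% or less, called low Il22 cells. Il22 was taken out of every total, so that its own molecules could not push the other genes down.

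Both libraries came from mice of the genotype Il23r-eGFP, a knock-in in which green fluorescence reports the Il23r locus, and live fluorescent leukocytes were sorted after Peyer's patches and epithelium had been taken off. The IL-23 library was given recombinant mouse IL-23 for 2 hours, and the other library is labelled unstimulated. Because the written protocol is the same for both, which library was left without IL-23 is known from the treatment label alone. The number of mice is not stated, and each group is 1 library. Cells of 1 library are not replicates. The differences are therefore given without a test or a replicate check, and the intervals cover counting error only. Over all barcodes the IL-23 library held 62291905 UMIs (median 5804.5) and the unstimulated library 58443284 (median 4877).

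IL-22 is a cytokine that group 3 innate lymphoid cells (ILC3s) make at the gut barrier, where it acts on epithelial cells to drive antimicrobial proteins and repair. IL-23, made mainly by myeloid cells, binds a receptor built of Il23r and Il12rb1 and acts through the kinases JAK2 and TYK2 and the transcription factor STAT3, which with AHR turns on Il22. The same receptor also drives the type 17 cytokines IL-17A and IL-17F.

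The start regions of 5 genes are shown because the comparison turns on them: Il22 itself, the type 17 cytokine genes Il17a and Il17f, which were among the highest, and the class II genes H2-Aa and H2-Eb1, which were among the lowest. The letters are RefSeq sequence of GRCm38.p6, 5′ to 3′ on the strand of the gene, from the 250 bases before each RefSeq start and without bases that GENCODE places in an exon of a protein-coding transcript of that gene. Capitals mark the core promoter letters TATAAA, the nuclear receptor half-site AGGTCA, the AP-1 letters TGANTCA, the STAT letters TTCNNNGAA and the box CCAAT, each searched on both strands. They run in turn over chr10:118204714-118204941 (plus strand), chr1:20730655-20730904 (plus), chr1:20784271-20784494 (minus), chr17:34287824-34288073 (minus) and chr17:34305617-34305866 (plus).
Il22: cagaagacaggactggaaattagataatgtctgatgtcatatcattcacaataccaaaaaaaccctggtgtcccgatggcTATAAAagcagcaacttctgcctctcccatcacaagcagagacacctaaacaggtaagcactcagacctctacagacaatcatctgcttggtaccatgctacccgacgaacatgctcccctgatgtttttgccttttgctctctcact
Il17a: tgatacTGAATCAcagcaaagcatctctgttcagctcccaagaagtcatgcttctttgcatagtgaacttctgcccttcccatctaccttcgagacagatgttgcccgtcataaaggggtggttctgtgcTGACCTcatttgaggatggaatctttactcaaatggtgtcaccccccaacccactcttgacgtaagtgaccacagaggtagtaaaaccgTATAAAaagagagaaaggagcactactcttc
Il17f: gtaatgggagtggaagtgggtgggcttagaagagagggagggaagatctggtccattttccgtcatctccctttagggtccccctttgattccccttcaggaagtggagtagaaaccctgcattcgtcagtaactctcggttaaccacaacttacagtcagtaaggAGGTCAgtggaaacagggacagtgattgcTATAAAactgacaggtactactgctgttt
H2-Aa: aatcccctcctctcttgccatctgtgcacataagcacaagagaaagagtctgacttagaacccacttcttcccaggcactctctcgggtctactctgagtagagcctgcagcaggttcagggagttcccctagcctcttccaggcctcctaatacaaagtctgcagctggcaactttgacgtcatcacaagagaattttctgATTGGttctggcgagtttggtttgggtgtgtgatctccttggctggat
H2-Eb1: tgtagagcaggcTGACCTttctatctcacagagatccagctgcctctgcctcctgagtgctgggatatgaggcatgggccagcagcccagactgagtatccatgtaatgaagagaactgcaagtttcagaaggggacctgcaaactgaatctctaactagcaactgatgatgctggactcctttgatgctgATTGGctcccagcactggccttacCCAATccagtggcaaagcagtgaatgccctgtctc
Il17a and Il17f each held a TATAAA and an AGGTCA match, and Il22 held a TATAAA match. The TATAAA began 31 bases before the RefSeq start in Il17a, 29 in Il17f and 170 in Il22. H2-Aa and H2-Eb1 held the reverse of CCAAT, the letters of the Y box of class II genes. H2-Eb1 held an AGGTCA match as well, and that half-site was in 4 of 8 matched promoters of the 15 lowest genes and 3 of 13 of the 15 highest. A STAT match was in none of these 5 stretches. Over all 32851 promoter stretches of 250 bases, TATAAA was found in 12.4%, AGGTCA in 14.0%, TGANTCA in 6.75%, TTCNNNGAA in 7.02% and CCAAT in 33.8%. A match describes letters and is no evidence of binding.

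In the high Il22 cells, Il22 took between 5.00% and 17.7% of the UMIs of a cell (median 6.82%), or 181 to 1679 molecules (median 513). In the low Il22 cells it took at most 0.999% (median 0.655%, 36 molecules). High Il22 cells held 453248 of the 1460451 Il22 UMIs of the gate, which is 31.0%. In the unstimulated library 62 of 9301 gated cells reached 5%, a share of 0.667% (0.511 to 0.854), and 7738 lay at 1% or less. Cell numbers fell without a gap across the threshold, with 146 cells from 5% to 5.5% and 207 from 4.5% to 5% in the IL-23 library. Only 10 gated cells of the IL-23 library had no Il22 UMI. Free RNA bears on such shares. In 2 barcodes of the same library with at least 10% of UMIs from immunoglobulin genes, Il22 made up 0.218% of all UMIs. These barcodes were deeper (median 28216 UMIs) than the low Il22 cells (median 5896.5), so that share is no measure of free molecules per droplet. The part of free RNA in the Il22 of the low Il22 cells was not tested.

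**Figure D1:**
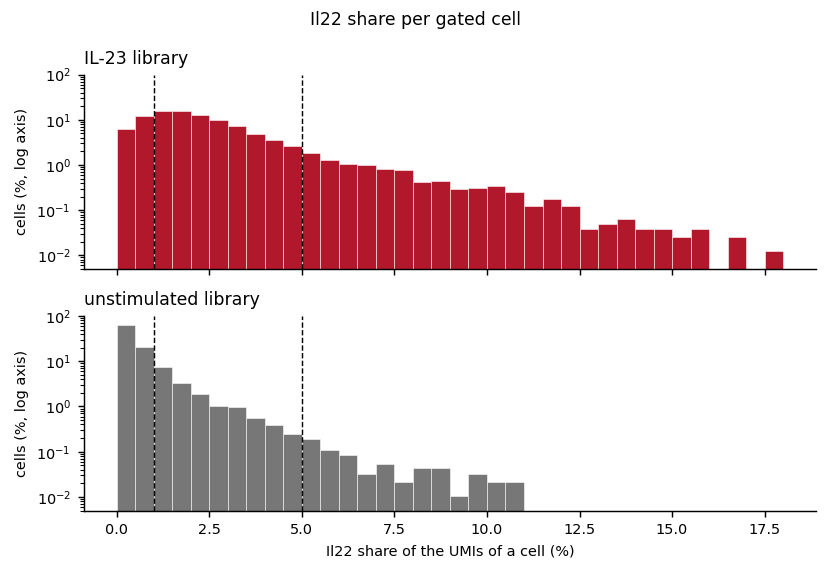
Percent of gated cells (log axis) by the Il22 share of their UMIs in steps of 0.5 percentage points, in the IL-23 library (top) and the unstimulated library (bottom). Dashed lines stand at 1% and 5%: 765 of 8007 cells of the IL-23 library and 62 of 9301 of the unstimulated library lie at or above 5%.

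Depth and RNA quality differed a little between the groups. High Il22 cells had a median of 6713 UMIs outside Il22, against 5863.5 in low Il22 cells. Mitochondrial UMIs made up a median of 3.09% in high and 3.19% in low Il22 cells, and cytosolic ribosomal protein genes 19.2% in high and 21.7% in low. With each cell drawn down to 2400 UMIs outside Il22, the median number of genes detected was 1155 in high and 1169 in low Il22 cells. No cell was too shallow to be drawn down. The part of depth in the differences between the groups was not tested beyond these drawn-down values and the alternative depth limits given further below. Of the barcode sequences, 29 occurred in both libraries, 2 of them among the high Il22 cells.

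A gene counts as measured with at least 10 CPM (its UMIs per 1000000 UMIs outside Il22) in 1 or both groups and at least 20 UMIs over both. Of 7149 measured genes, 385 (5.39%) were at least 1.5-fold higher and 829 (11.6%) at least 1.5-fold lower in high Il22 cells, and the median log2 ratio was −0.13. Under TMM scaling (edgeR), which centres the bulk of the genes, that median was 0.05 and the split turned to 652 higher and 429 lower, so higher calls made up 60.3% of the calls in place of 31.7%. Values below are from the plain scaling and are best read against the median of all genes. Counts of list members higher or lower in high Il22 cells of the IL-23 library are likewise to be read beside 5.39% and 11.6%.

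The sorted cells carried ILC3 transcripts in both groups. Of the 10 measured ILC3 markers, 4 (Rora, Il1r1, Il23r and Thy1) were at least 1.5-fold higher in high Il22 cells. None was at least 1.5-fold lower. Over all measured genes the shares were 5.39% higher and 11.6% lower. Thy1 and Il23r passed 1.5-fold narrowly. Thy1 was below it in 10 of 20 alternative settings (lowest log2 ratio 0.38), Il23r in 8 (0.46), Il1r1 in 1 (0.46) and Rora in none. Il7r, the receptor chain for the survival cytokine IL-7, was at 297 CPM in high and 353 CPM in low Il22 cells. The T cell list beyond the gate had 6 measured members, none at least 1.5-fold higher and 1, Cd4, lower, with summed levels of 522 CPM in high and 454 CPM in low Il22 cells. Trbc1, a T cell receptor beta constant gene, was at 257 CPM in high and 222 CPM in low. No T cell receptor constant UMI was found in 215 of 765 high and 566 of 1478 low Il22 cells, and the others carried such transcripts though they passed the CD3 gate. Between those 215 and 566 cells the log2 ratio of Il17a was 4.15 and that of H2-Aa −2.77. Trac, the alpha constant gene, had 7 UMIs in high and 20 in low Il22 cells. B and plasma cell transcripts summed to 16.5 CPM in high Il22 cells, where Mzb1 and Iglc2 had 0 UMIs, and to 2836 CPM in low Il22 cells. Summed markers of myeloid cells were at 856 CPM in high and 846 CPM in low Il22 cells, almost all of it Fcer1g and Cst3, the 2 measured of 16. With no filter beyond 1 UMI, 12 of the 16 had a value, many at few UMIs. Of these, 8 were lower and 0 higher, with a median log2 ratio of −2.27. Without that filter 5682 of all 16506 genes were lower and 1897 higher, with a median of −0.27. Markers of epithelial and stromal cells summed to 109 CPM in high and 111 CPM in low.

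Il17a and Il17f had high ratios among the cytokine genes. Of 17 measured cytokine and growth factor genes, 10 were at least 1.5-fold higher in high Il22 cells and 2 were lower. Among all genes, 5.39% were higher and 11.6% lower. The list had a median log2 ratio of 1.00 against −0.13 over all genes. Il17a (chr1:20730905-20734496), which encodes the neutrophil-recruiting cytokine IL-17A, reached 824 CPM (800 to 848) in high Il22 cells, against 44.3 CPM (40.2 to 48.8) in low. That is a log2 ratio of 4.22 (4.07 to 4.36), the highest of any gene at 50 CPM or more. Il17f (chr1:20777146-20790617), its neighbour and close relative, reached 1792 CPM in high and 227 CPM in low Il22 cells, a log2 ratio of 2.98 (2.91 to 3.05). Il2 (3.30, at a low level) and Iltifb (3.25) had ratios between theirs.

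Transcripts of Il17a were detected in a minority of high Il22 cells. At 2400 UMIs per cell, an Il17a UMI was found in 22.6% (19.7 to 25.7) of high and 6.22% (5.05 to 7.58) of low Il22 cells (29.2% and 10.2% in high and low without the drawing down). An Il17f UMI was found in 57.9% (54.3 to 61.4) of high and 21.9% (19.8 to 24.1) of low Il22 cells (71.5% and 33.5% in high and low without it). Both were detected in 19.6% of high and 3.11% of low cells, and neither in 39.1% of high and 74.97% of low cells. Among 11 barcodes of the library with at least 0.5% of UMIs from B cell, plasma cell, macrophage or endothelial genes (median 7210 UMIs), none had an Il17a or Il17f UMI, which allows a share of up to 28.5%.

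Further cytokines followed in smaller amounts. Hbegf, a ligand of the epidermal growth factor receptor, was at 489 CPM in high and 205.5 CPM in low Il22 cells, a log2 ratio of 1.25. Tnfsf11, which encodes the lymphoid tissue factor RANKL, was at 228 CPM in high and 114 CPM in low, a log2 ratio of 1.00. Lif was at 31.5 CPM in high and 7.95 CPM in low, and Ifng, the type 1 cytokine gene 236 kb from Il22, at 42.9 CPM in high and 11.9 CPM in low. Csf2, which encodes GM-CSF, passed 1.5-fold narrowly, at 35.4 CPM in high and 23.2 CPM in low (log2 ratio 0.61, 0.33 to 0.89). Tnf, Lta, Ltb and Vegfa lay within 1.5-fold, and Tnfsf8 (12.3 CPM in high, 33.3 CPM in low) and Bmp2 (27.8 and 50.6 CPM in high and low) were lower in high Il22 cells.

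Single cells weighed on several of these values. Areg, which encodes the tissue repair factor amphiregulin, was at 95.2 CPM in high and 17.8 CPM in low Il22 cells, but 1 high cell held 265 of its 535 UMIs. Without that cell it was at 48.1 CPM in high Il22 cells. Il2 was at 13.0 CPM in high and 1.27 CPM in low Il22 cells, and 1 high cell held 50 of its 73 UMIs, leaving 4.10 CPM without it. Only 46 of 765 high Il22 cells had an Areg UMI and 9 had an Il2 UMI. For Csf2, 1 high cell held 37 of 199 UMIs. Without that cell Csf2 was at 28.9 CPM in high Il22 cells, within 1.5-fold of the 23.2 CPM in low. A Csf2 UMI was found in 8.89% of high and 7.98% of low Il22 cells. For Ifng, 1 high cell held 71 of 241 UMIs, leaving 30.3 CPM without it, against 11.9 CPM in low Il22 cells.

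Next to the cytokines, the 15 highest genes held 2 neutrophil chemokines and a group of signalling and surface genes. Cxcl2 was at 861 CPM in high and 175 CPM in low Il22 cells (log2 ratio 2.30), and Cxcl3 at 300.0 CPM in high and 73.9 CPM in low (2.02). Gadd45g, a stress-kinase activator known to promote cytokine output in T cells, was at 2467 CPM in high and 514 CPM in low, a log2 ratio of 2.26 (2.22 to 2.31). Fgl2, which encodes a secreted fibrinogen-like immune regulator, was at 839 CPM in high and 213 CPM in low (1.98). The inhibitory receptors Ctla4 (419 CPM in high, 116 CPM in low; 1.86) and Cd244a (64.1 and 17.1 CPM in high and low; 1.91) were also among the 15. In the unstimulated library Ctla4 was the other way round, with 1 UMI (3.16 CPM) in high and 16.6 CPM in low Il22 cells (−1.81, −7.70 to 0.09). Of the 6 inhibitory receptor genes measured there, 0 were higher and 3 lower, beside 14.4% and 23.3% of all genes. The whole list held 61 UMIs in the unstimulated high cells. The rest were Sema4c, a semaphorin, Metrnl, a secreted protein, Sphk2, a sphingosine kinase, Slc11a2, an iron transporter, and Hsbp1l1, with log2 ratios of 2.24, 1.97, 1.70, 1.61 and 1.57.

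Iltifb is a near-copy of Il22, about 80 kb away on the other strand of the same chromosome. It was at 77.9 CPM in high and 8.16 CPM in low Il22 cells (log2 ratio 3.25). Reads of the 2 genes may be split between them in counting, so its value is uncertain and cannot be told apart from Il22. Of 44 genes within 1000 kb of Il22 (chr10:118204942-118210047), 10 were measured. Iltifb, Ifng, Cpm and Mdm1 were at least 1.5-fold higher, beside 5.39% of all genes. Cpm was at 23.0 CPM in high and 11.4 CPM in low, and Mdm1 at 18.7 CPM in high and 9.43 CPM in low. Cpm, Mdm1 and Ifng each fell under 1.5-fold in 1 alternative setting, with lowest log2 ratios of 0.20, 0.27 and 0.23. Yeats4, Cpsf6, Mdm2, Rap1b, Dyrk2 and Cand1 lay within 1.5-fold.

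**Figure D2:**
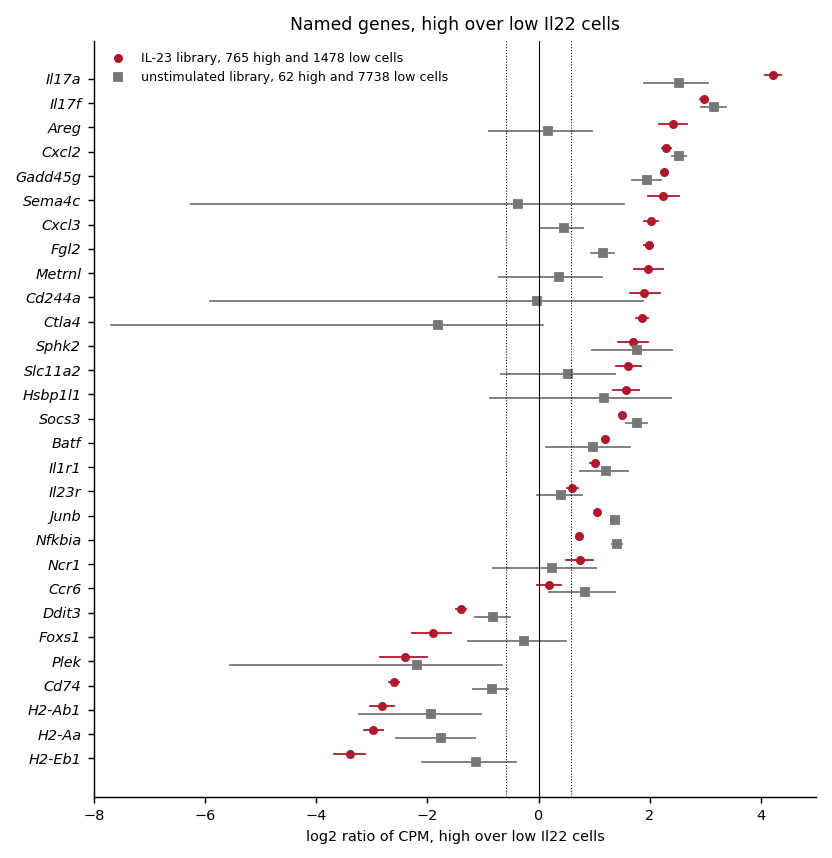
Log2 ratio of CPM in high over low Il22 cells for named genes, with 95% counting intervals, in the IL-23 library (red circles) and the unstimulated library (grey squares). Dotted lines mark 1.5-fold. Il17a (4.22) and Il17f (2.98) stand highest of these genes and H2-Eb1 (−3.39) lowest in the IL-23 library, and the intervals of the 62 unstimulated high cells are wide.

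Genes of the IL-23 signalling chain had smaller ratios than many STAT3 targets. Of 11 measured members of the chain, Il23r (257 CPM in high, 169 CPM in low; log2 ratio 0.61) and Stat3 (1212 and 766 CPM in high and low; 0.66) were at least 1.5-fold higher, and Il10rb, at 7.65 CPM in high and 14.6 CPM in low, was lower. Jak1, Jak2, Tyk2 and the other STATs measured lay within 1.5-fold. Of 21 measured STAT3 target genes 11 were higher and 1 lower, beside 5.39% and 11.6% of all genes. Their median log2 ratio was 0.59. Socs3, the feedback inhibitor of STAT3 signalling, was at 1380 CPM in high and 485.5 CPM in low Il22 cells (1.51). Cish (688 and 301 CPM in high and low; 1.19), the kinase gene Pim1 (2160 and 1096 CPM; 0.98), Junb (5689 and 2729 CPM; 1.06) and Myc (50.4 and 20.3 CPM; 1.31) were higher too. Ier3, an early response gene, went the other way at 16.9 CPM in high and 63.8 CPM in low (−1.91).

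Receptors for other cytokines differed one by one. Il1r1, the receptor for IL-1, which acts with IL-23 on ILC3s, was at 510 CPM in high and 253 CPM in low Il22 cells (1.01) and was the 1 higher gene of 10 measured in the IL-1 family list. At 2400 UMIs per cell it was detected in 66.3% of high and 36.1% of low cells (88.2% and 57.7% in high and low without the drawing down), and in 1 of the 11 barcodes of other lineages. Il2ra (839 and 494 CPM in high and low; 0.76) and Il15ra (45.2 and 13.5 CPM; 1.74) were higher, while Il7r, Kit and the shared chain Il2rg lay within 1.5-fold. Of the co-stimulatory list, Icos (1663 CPM in high, 822 CPM in low) and Tnfrsf18, which encodes GITR (601 and 343 CPM in high and low), were higher, 2 of 7 measured.

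Of 32 measured transcription factors, 6 were at least 1.5-fold higher and 1 lower, beside 5.39% and 11.6% of all genes, with a median of 0.22. Prdm1, which encodes BLIMP-1, had the highest ratio at 169 CPM in high and 59.6 CPM in low Il22 cells. Batf, an AP-1 factor of type 17 cells, was at 764 CPM in high and 332 CPM in low (1.20), and a Batf UMI was found in 76.5% of high and 45.7% of low cells at 2400 UMIs (92.9% and 65.6% in high and low without the drawing down). Rora (2114 and 1246 CPM in high and low; 0.76), Nfil3 (0.78), Ikzf3 (0.67) and Ikzf2 (0.66) followed. Ahr, the aryl hydrocarbon receptor, missed 1.5-fold at 183 CPM in high and 123 CPM in low (0.57). Gata3, Tbx21, Id2, Maf and Runx1 lay within 1.5-fold. Id3 was at 2.67 CPM in high and 41.2 CPM in low (−3.90), a value that turned to 0.53 without cells holding 5 or more UMIs of other-lineage markers.

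Genes of the machinery that exports secreted proteins are set beside all genes, of which 5.39% were higher and 11.6% lower. Of 29 measured genes of translocation into the endoplasmic reticulum none was at least 1.5-fold higher and 1, Ddost, was lower, with a median of −0.25. Of 23 genes of the unfolded protein response none was higher and 2 were lower, with a median of −0.18. Hspa5, the chaperone BiP, was at 2412 CPM in high and 2327 CPM in low Il22 cells (0.05), and Xbp1 at 350.0 CPM in high and 356 CPM in low (−0.03). Ddit3, which encodes the stress factor CHOP, was at 192 CPM in high and 505 CPM in low (−1.39), and Sdf2l1 at 46.4 and 89.9 CPM in high and low (−0.95). Of 20 Golgi transport genes, none was higher and 2 were lower, with a median of −0.14 that was 0.04 under TMM scaling. Under TMM scaling the medians of the translocation and unfolded protein lists were −0.08 and −0.01, with 0 and 1 genes higher.

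Among metabolic genes, 6 of 18 measured glycolysis and hypoxia genes were higher and none lower, beside 5.39% and 11.6% of all genes. Their median was 0.30. Hk2, a hexokinase, was at 522 CPM in high and 269 CPM in low Il22 cells (0.95), Pfkfb3 at 123 CPM in high and 70.1 CPM in low (0.82), and Ldha at 474 CPM in high and 294 CPM in low (0.69). All 20 nuclear-encoded respiratory chain genes lay within 1.5-fold, as did all 13 mitochondrially encoded genes and all 81 measured cytosolic ribosomal protein genes. The amino acid transporter Slc7a5 was lower, at 47.0 CPM in high and 80.4 CPM in low (−0.77). Of 11 mRNA decay factors, Btg1 (3850 CPM in high, 1729 CPM in low) and Zfp36l1 (2045 and 1292 CPM in high and low) were higher.

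Early response genes were mixed over all high and low Il22 cells. The counts stand beside 5.39% higher and 11.6% lower among all genes. Of 19 NF-kB targets, Nfkbia (2126 CPM in high, 1291 CPM in low; 0.72), Rel (0.80), Tnfaip3 (0.81) and Birc3 (0.66) were higher, and the chemokine genes Ccl3 and Ccl4 were lower. Ccl4 was at 10.0 CPM in high and 69.4 CPM in low, with UMIs in 8 high and 22 low cells, and its ratio was −0.25 without cells holding 5 or more UMIs of other-lineage markers. Ccl3 turned to 1.01 without them. Of 18 immediate early genes, Junb, Fos (565 and 372 CPM in high and low; 0.60), Nr4a2 (0.89) and Klf6 (0.88) were higher, and Klf2 (24.6 and 65.1 CPM; −1.40) and Dusp2 lower. Without the cells holding other-lineage markers, 5 of 17 measured immediate early genes were higher and 0 lower. Of 18 NF-kB targets measured then, 4 were higher and 0 lower. Over all 7090 genes measured then, 404 were higher and 753 lower. Of 12 heat shock genes 1 was higher and 2 were lower. Sensors of metabolites and lipids had 6 higher and 2 lower of 12. Ptgs2, which encodes the prostaglandin enzyme COX-2, was at 273 CPM in high and 97.5 CPM in low (1.48). Gpr183, the oxysterol receptor that positions ILC3s, was at 1563 CPM in high and 836 CPM in low (0.90), and Gpr65, a proton sensor, at 600 and 302 CPM in high and low (0.99). Ffar2, the receptor for short-chain fatty acids, was at 94.3 CPM in high and 44.7 CPM in low (1.08).

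**Figure D3:**
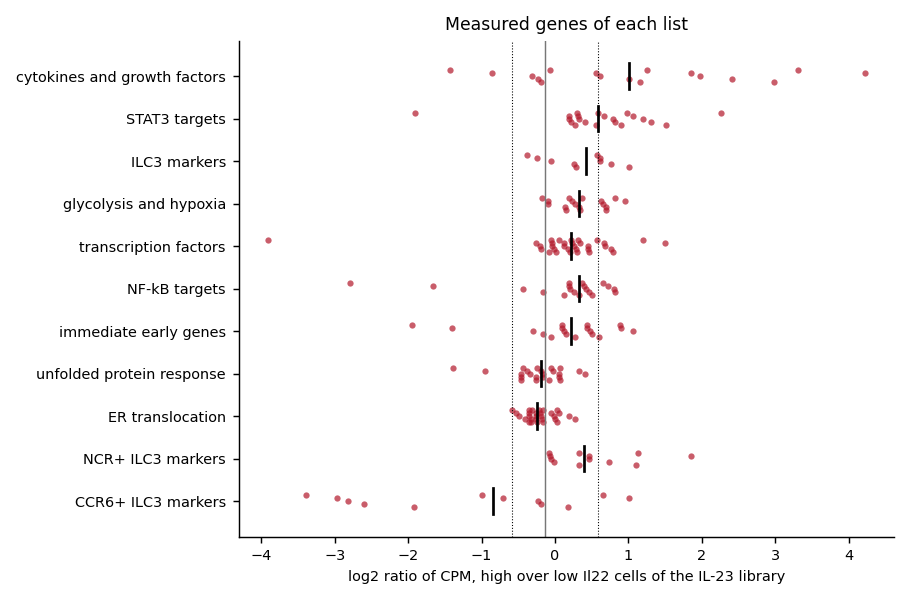
Log2 ratio of CPM in high over low Il22 cells of the IL-23 library for each measured gene (points) of 11 lists, with the list median (black bar). The grey line is the median of all 7149 measured genes (−0.13) and dotted lines mark 1.5-fold: the cytokine list has the highest median (1.00) and the CCR6+ ILC3 list the lowest (−0.85).

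Antigen presentation genes of class II were among the lowest in the high Il22 cells. Intestinal CCR6+ ILC3s are known to display antigen on MHC class II. H2-Eb1 was at 20.6 CPM (17.1 to 24.8) in high and 217 CPM (208 to 227) in low Il22 cells, a log2 ratio of −3.39. H2-Aa was at 54.1 CPM in high and 425 CPM in low (−2.97), H2-Ab1 at 33.8 CPM in high and 239 CPM in low (−2.82), and Cd74, the invariant chain that escorts class II, at 177 CPM in high and 1073 CPM in low (−2.60). An H2-Aa UMI was found in 6.14% of high and 24.7% of low Il22 cells at 2400 UMIs per cell (9.15% and 30.2% in high and low without the drawing down), and a Cd74 UMI in 12.7% of high and 33.4% of low (19.9% and 41.3% in high and low without it). Cd74 was found in 9 of the 11 barcodes of other lineages. B cells, macrophages and dendritic cells also make class II, and their part in the lower levels was not tested beyond the next value. Without cells holding 5 or more UMIs of other-lineage markers, the log2 ratio of H2-Aa was −2.75 and that of Cd74 −2.32.

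The other low genes were of several kinds. Plek, which encodes pleckstrin (9.43 CPM in high, 50.6 CPM in low), and Foxs1, a forkhead factor (14.2 and 53.5 CPM in high and low), had UMIs in 182 and 280 low cells. Igkc, Jchain, Iglc1 and Igha of plasma cells, and Tm4sf1, Selp and Ifitm3, known from endothelium among other tissues, rested on few barcodes. A single low barcode held 98.5% of the Igkc UMIs of the low Il22 cells, and 1 held 99.6% of those of Iglc1. Without the cells holding 5 or more UMIs of other-lineage markers, an alternative chosen after seeing the data that leaves 763 high and 1453 low cells, the log2 ratios of these 7 genes lay between 0.000913 (Igkc) and 2.29 (Tm4sf1). The 7 genes are themselves among the 48 markers counted, which leave out Fcer1g, Cst3 and Pecam1, so the removal acts on them by construction. Plek and Foxs1 were at −2.26 and −1.95 without those cells.

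The 15 highest and 15 lowest genes were next followed over 6 steps of Il22 share. The genes were chosen from the ends of the same steps, so a rise or fall over them is favoured by the choice and is given as a description. Over all 7149 measured genes, 300 rose and 449 fell at every step. Of the 15 highest, 12 were higher at every step (not Areg, Cxcl2 and Sphk2). The 12 include Iltifb, which cannot be told apart from Il22. Il17a was at 44.3, 152, 290, 586, 806 and 866 CPM from the step up to 1% to the step of 8% and over. Gadd45g was at 514, 902, 1208, 1469, 2260 and 2976 CPM over the same steps. Of the 15 lowest, H2-Eb1, H2-Aa, H2-Ab1, Cd74, Plek and Foxs1 were lower at every step. H2-Aa was at 425, 213, 140, 85.0, 61.6 and 35.6 CPM. Ccr6, by contrast, stayed between 43.6 and 55.3 CPM.

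Cells just inside and just outside the 5% threshold are given as a description. Gadd45g was at 1954 CPM in the cells from 5% to 5.5% and at 1668 CPM in those from 4.5% to 5%. Il17a was at 758 CPM just inside and 514 CPM just outside, Il17f at 1261 and 1145 CPM inside and outside, and Cd74 at 202 and 233 CPM. Against all 5764 gated cells above 1% and under 5%, 293 of 6852 measured genes (4.28%) were at least 1.5-fold higher in high Il22 cells and 228 (3.33%) lower.

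**Figure D4:**
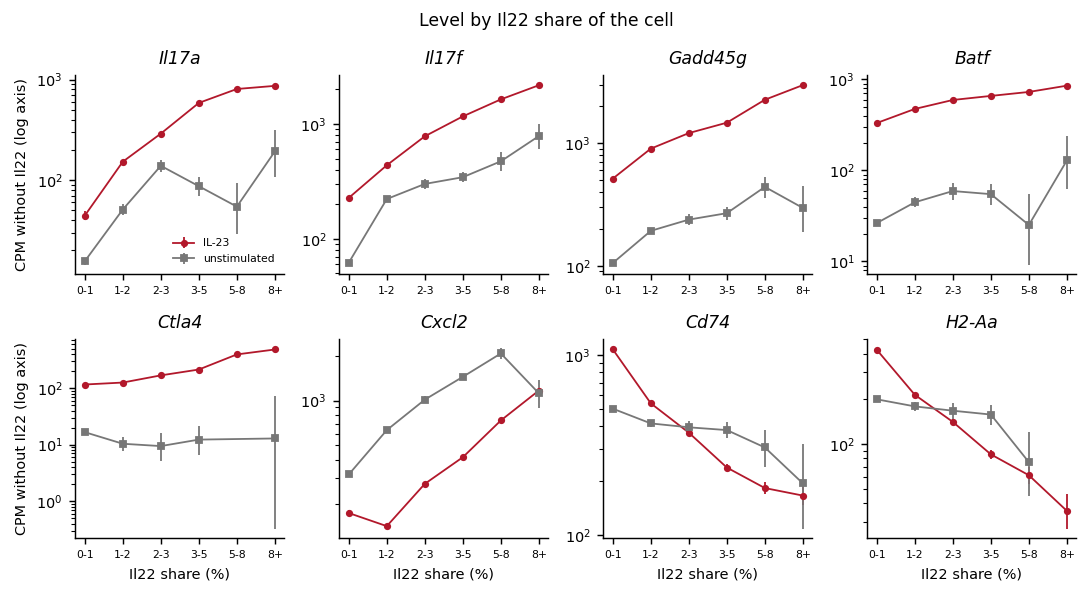
CPM (log axis, Il22 out of the total) of 8 genes by the Il22 share of the cell in 6 steps, in the IL-23 library (red circles) and the unstimulated library (grey squares), with Poisson 95% intervals. Steps with 0 UMIs are not drawn. In the IL-23 library Il17a climbs over the 6 steps to 866 CPM and H2-Aa drops to 35.6 CPM.

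High Il22 cells came from more than 1 ILC3 subset. NCR+ ILC3s carry the receptor NKp46, encoded by Ncr1, and CCR6+ ILC3s resemble lymphoid tissue inducer cells. Cells with an Ncr1 but no Ccr6 UMI made up 21.7% (18.8 to 24.8) of high and 13.5% (11.8 to 15.4) of low Il22 cells. Cells with a Ccr6 but no Ncr1 UMI made up 16.9% of high and 16.6% of low, and 60.1% of high and 69.6% of low cells had neither. Ncr1+ cells were deeper (median 9126 UMIs in high, 7084 in low). At 2400 UMIs per cell an Ncr1 UMI was found in 9.80% (7.79 to 12.1) of high and 5.82% (4.68 to 7.14) of low Il22 cells, and a Ccr6 UMI in 10.5% of high and 9.81% of low. Without the drawing down the Ncr1 shares were 23.0% in high and 13.8% in low, and the Ccr6 shares 18.2% in high and 16.8% in low. Among all genes, 5.39% were higher and 11.6% lower in high Il22 cells. Of the NCR+ list, 4 of 12 measured genes (Ncr1, Ifng, Gzmb and Dusp4) were higher and none lower, with a median of 0.39. Of the CCR6+ list, Tnfsf11 and Cxcr5 were higher and 7 of 12 were lower (Cd74, H2-Aa, H2-Ab1, H2-Eb1, Nrp1, Cd4 and Ccr7), with a median of −0.85.

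The subsets of high Il22 cells differed in what they made besides Il22. Il17a was at 397 CPM (366 to 430) in the 166 Ncr1+ high cells, 1000.1 CPM (937 to 1067) in the 129 Ccr6+ high cells and 998 CPM in the 460 with neither. Il17f was at 845 CPM in Ncr1+, 2613 CPM in Ccr6+ and 2031 CPM in the high cells with neither. Ctla4 ran the other way, at 743 CPM in Ncr1+, 110 CPM in Ccr6+ and 364 CPM in the high cells with neither. Ifng had 202 UMIs (136 CPM) in Ncr1+ high cells, 38 UMIs in high cells with neither and 1 UMI in Ccr6+ high cells. Tnfsf11 was highest in Ccr6+ high cells, at 534 CPM, against 142 CPM in Ncr1+ high cells.

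The high and low Il22 cells were also compared within subsets. Il17a was at 397 CPM in high and 21.4 CPM in low Ncr1+ cells, and at 1000.1 CPM in high and 80.6 CPM in low Ccr6+ cells. Cd74 was at 29.0 CPM in high and 93.1 CPM in low Ncr1+ cells, and at 486 CPM in high and 1958 CPM in low Ccr6+ cells. H2-Aa was at 141 CPM in high and 735 CPM in low Ccr6+ cells. H2-Ab1 was at 80.1 CPM in high and 415 CPM in low Ccr6+ cells (−2.36), and at 15.5 CPM in high and 16.1 CPM in low Ncr1+ cells (−0.05). Of the CCR6+ list, 7 of 12 measured genes were lower and 2 higher in Ccr6+ cells, with a median of −0.62. Over all 7250 genes measured in Ccr6+ cells, 1161 were lower and 767 higher. In Ncr1+ cells 3 of 8 of the list were lower and 2 higher, with a median of −0.25. Over all 7094 genes measured there, 1156 were lower and 586 higher. Ctla4 was at 110 CPM in high and 12.6 CPM in low Ccr6+ cells. Gadd45g was at 3233 CPM in high and 565 CPM in low Ncr1+ cells.

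**Figure D5:**
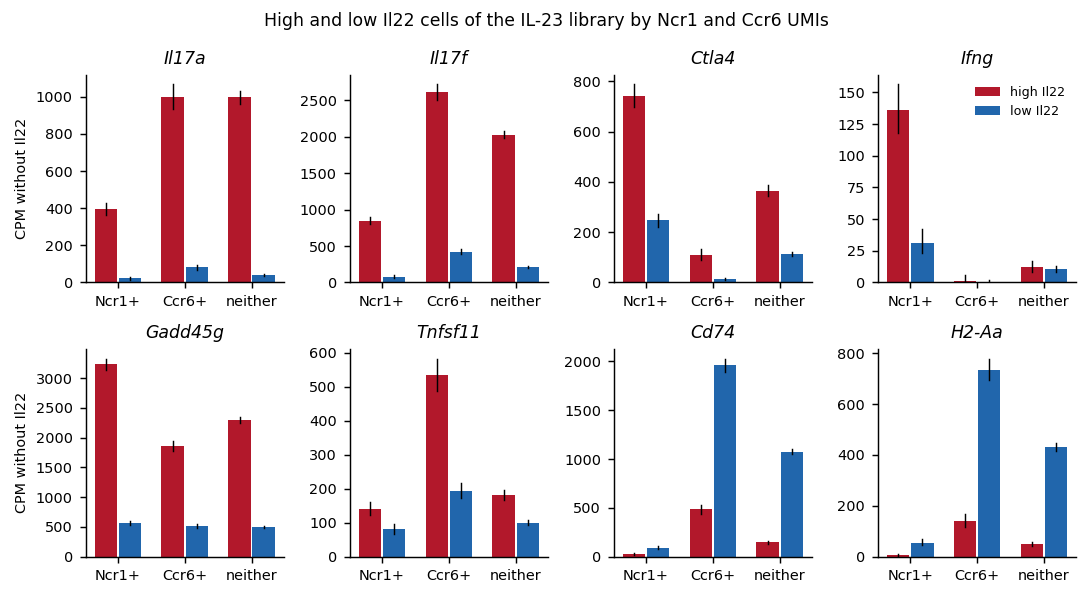
CPM (Il22 out of the total) of 8 genes in high (red) and low (blue) Il22 cells of the IL-23 library that hold an Ncr1 but no Ccr6 UMI, a Ccr6 but no Ncr1 UMI, or neither, with Poisson 95% intervals (black). Il17a is higher in high Il22 cells of all 3 classes, and Cd74 is highest in the low Ccr6+ cells (1958 CPM).

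The unstimulated library held 62 cells above the same Il22 threshold, and they carried part of the same pattern. With 62 cells summing to 316536 UMIs, counting error is large: of 7208 measured genes, 1036 (14.4%) were at least 1.5-fold higher and 1681 (23.3%) lower than in the 7738 low Il22 cells of that library. Il17f was at 550 CPM in high and 62.0 CPM in low unstimulated cells (log2 ratio 3.15), and Il17a at 88.5 CPM in high and 15.6 CPM in low (2.53). Of the 17 cytokine genes 12 were higher and none lower. Class II was lower here as well, H2-Aa at 56.9 CPM in high and 198 CPM in low (−1.76). Of 341 genes higher in the IL-23 library that were measured in both, 191 were also higher in the unstimulated high cells, which is 56.0% of the IL-23 list and 23.4% of the unstimulated one, and 24 were lower. Of 719 genes lower in the IL-23 library and measured in both, 336 were also lower in the unstimulated high cells and 66 were higher. Over all 6861 genes measured in both, the log2 ratios of the 2 libraries correlated at r = 0.44 (Pearson) and 0.39 (Spearman). Over the 3011 genes at 50 CPM or more in both, the correlation was 0.66 (Pearson) and 0.53 (Spearman). That is across genes, which are not independent replicates.

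Stress and early genes were often higher in the unstimulated high cells. Of the NF-kB targets 14 of 19 were higher there and 2 lower. Of the immediate early genes 13 of 17 were higher and 0 lower. Of the heat shock genes 5 of 11 were higher and 1 lower. Among all genes measured there, 14.4% were higher and 23.3% lower. The 2 libraries' high Il22 cells were also set against each other at the same Il22 threshold. Of 6918 measured genes, 1267 (18.3%) were at least 1.5-fold higher in the IL-23 high cells and 1256 (18.2%) lower. Hspa1a, an inducible heat shock gene, was at 66.9 CPM in IL-23 and 373 CPM in unstimulated high cells (−2.48), with a UMI in 35 of 765 IL-23 and 6 of 62 unstimulated high cells. Fos was at 565 CPM in IL-23 and 1390.0 CPM in unstimulated high cells (−1.30), and Tnfsf8, which encodes the ligand of CD30, at 12.3 and 158 CPM (−3.69). Of the immediate early genes 1 of 17 was higher and 12 were lower in the IL-23 high cells.

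Of the 32 measured transcription factors, 11 were higher and 6 lower in the IL-23 than in the unstimulated high cells, with a median of −0.03, beside 18.3% and 18.2% of all genes. Batf was at 764 CPM in IL-23 and 50.5 CPM in unstimulated high cells, a log2 ratio of 3.87 (3.22 to 4.73). Il17a was at 824 CPM in IL-23 and 88.5 CPM in unstimulated high cells (3.19), Il1r1 at 510 and 148 CPM (1.76), and Prdm1 at 169 and 25.3 CPM (2.65). Ctla4 had 2353 UMIs in IL-23 high cells and 1 in unstimulated high cells, a log2 ratio of 6.47 (4.57 to 12.4). Ggta1, at 64.8 CPM in IL-23 high cells, had 0 UMIs in unstimulated high cells, whose floor of 3 UMIs over the group is 9.48 CPM. It was thus at least 6.83-fold higher in the IL-23 high cells.

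Part of this difference was also present in cells that made little Il22. The low Il22 cells of the 2 libraries were not matched in Il22. It took a median of 0.655% of UMIs in IL-23 and 0.211% in unstimulated low Il22 cells. The part of that gap in the values below was not tested. Batf was at 332 CPM in IL-23 and 26.4 CPM in unstimulated low Il22 cells (log2 ratio 3.65), Gadd45g at 514 and 105 CPM (2.29) and Il1r1 at 253 and 64.6 CPM (1.97). Hspa1a ran the other way there, at 88.4 CPM in IL-23 and 48.9 CPM in unstimulated low Il22 cells (0.86). Of 7194 measured genes, 347 (4.82%) were at least 1.5-fold higher in the IL-23 low cells and 169 (2.35%) lower. Treatment, library and handling coincide in these comparisons and cannot be told apart.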

How the data were processed

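Droplet single-cell RNA libraries of sorted Il23r-eGFP cells, 1 per group, were used. The authors deposited whole-number UMI counts per gene and barcode, not normalized. Cell Ranger 3.1.0 and mm10 are named per the submitters' processing notes, while the deposited matrix headers name cellranger 6.0.0. The columns were filtered barcodes, 10440 with IL-23 and 11096 unstimulated, and how they were told from empty droplets is not given in the sources used here. No doublet caller was run. Doublets were addressed only by leaving out the 5% of cells with most UMIs.

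Cells were filtered and split as described above, and their UMIs summed and divided by the summed total outside Il22 (CPM). Log2 ratios used 0.5 UMI added to each sum. Poisson, binomial and Clopper-Pearson 95% intervals cover counting error only. Shares of cells were taken after drawing each cell down to 2400 UMIs outside Il22. No p-value was computed, since each group is 1 library. A gene was called at 1.5-fold. The genes named were the 15 highest and 15 lowest at 50 CPM or more in the higher group, genes of the lists, genes within 1000 kb of Il22, and the 10 highest and lowest between the high cells of both libraries. The members and lists were chosen with earlier results of these data known. Gene positions are GENCODE vM21 (GRCm38), matched for 32158 of 32285 gene IDs. Alternatives changed thresholds, depth, gate, subset, scaling and filter. Python 3.11.15, numpy 2.4.6, scipy 1.17.1, pandas 2.3.3 and matplotlib 3.10.9 were used, with R 4.3.3 and edgeR 4.0.16 for TMM scaling alone. The summing and ratios were tested on simulated data. Results for 1 gene are not reported here.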

Additional observations from a re-analysis of the deposited data

Results flagged for a closer look

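Among the named genes, 13 were at least 1.5-fold different in opposite directions in the 2 libraries, and the difference was not tested. Ikzf3, which encodes the lymphoid factor Aiolos, had a log2 ratio of 0.67 in the IL-23 library (238 CPM in high and 149 CPM in low Il22 cells). It had −0.83 in the unstimulated library (82.1 CPM, 26 UMIs, in high and 149 CPM in low). Pcp4, which encodes a calmodulin-binding peptide, had 0.81 in the IL-23 library (546 CPM in high and 311 CPM in low) and −1.98 in the unstimulated library (145 CPM, 46 UMIs, in high and 580 CPM in low). Ctla4 had 1.86 in the IL-23 library and −1.81 in the unstimulated library, and Rbl2 had 0.98 and −1.86. The other 9 were lower in high Il22 cells of the IL-23 library and higher in those of the unstimulated library. Tnfsf8 had −1.43 with IL-23 and 2.68 unstimulated, Cxcl1 −1.80 and 2.90, Hspa1b −0.66 and 3.12, and Ttn −1.22 and 1.49. Klf2 had −1.40 with IL-23 and 0.96 unstimulated, Ramp1 −0.67 and 1.11, Ier3 −1.91 and 1.06, Cd4 −0.99 and 1.03, and Cd79b −0.62 and 0.94. The unstimulated values of these 11 genes rest on 1 to 51 UMIs in the 62 high cells, and the unstimulated counting intervals of Ctla4, Ier3, Cd4 and Cd79b include 0.

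Cells with a CD3 chain UMI, which the gate left out, also reached the Il22 threshold. In the IL-23 library 29 of 624 such cells (4.65%, 3.13 to 6.61) had Il22 at 5% or more, against 1 of 684 (0.146%, 0.0037 to 0.812) in the unstimulated library. T cells and doublets were not told apart here.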

How the results depend on the processing

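No paired analysis was possible because each group is 1 library, and for the same reason no replicate could be left out. The share of gated IL-23 cells called high was 15.7% at a 4% threshold, 2.80% at 8%, 10.7% with at least 5000 UMIs and 7.65% with no T cell receptor constant UMIs. In the unstimulated library it was 1.31% at 4% and 0.172% at 8%. The counts of 385 higher and 829 lower genes became 578 and 1260 at an 8% threshold, 652 and 429 under TMM scaling, and 1897 and 5682 with no filter beyond 1 UMI. They were 338 and 910 in cells with 5000 to 10000 UMIs outside Il22 (median 6804 in high, 6309 in low). The cells between 1% and 5% as comparison gave 228 lower. Higher genes numbered 583 with no T cell receptor constant UMIs, 586 in Ncr1+ cells and 767 in Ccr6+ cells.

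Of the 30 highest and lowest genes, 20 kept their sign and 1.5-fold in all settings. Of 1913 gene values over 96 genes and 21 settings, 1168 stayed within the counting interval of the main value. Another 706 left that interval without a change of sign. The other 39 changed sign, and the cause was not tested. With low cells at 0.5% or less, Isg15 had −0.077. Against the cells between, Iglc1 had 0.13, Tm4sf1 1.19, Igha 0.77, Selp 1.32, Ifitm3 0.60, Ier3 0.076, Ccl3 0.41, Cxcr5 −0.0016, Id3 0.40, Iigp1 0.61 and Il10rb 0.046. At 5000 to 10000 UMIs, Iglc1 had 0.54, Igha 0.53 and Selp 0.52, and without the 5% of cells with most UMIs Selp had 0.48. In Ncr1+ cells, Igkc had 0.86, Selp 1.59, Ifitm3 2.08, Bmp2 0.49, Ccl3 1.27, Cd4 1.23, Cxcr5 −0.15 and Iigp1 1.20. In Ccr6+ cells, Selp had 2.43, Ifitm3 1.58, Gzmb −0.55, Id3 2.43, Iigp1 0.70 and Pcp4 −0.11. Without cells holding 5 or more UMIs of other-lineage markers, Igkc had 0.000913, Jchain 0.41, Iglc1 0.052, Tm4sf1 2.29, Igha 0.26, Selp 0.70, Ifitm3 0.54, Ccl3 1.01 and Id3 0.53. Genes with few UMIs, and all values of the 62 unstimulated high cells, are limited by depth.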

Other observations

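Interferon genes are not described above. Of 13 measured, 9 were at least 1.5-fold higher and 1 lower in high Il22 cells of the IL-23 library than in those of the unstimulated library, with a median log2 ratio of 1.51, beside 18.3% and 18.2% of all genes. In the low Il22 cells 6 of 14 were higher with IL-23 and 0 lower, with a median of 0.34, beside 4.82% and 2.35% of all genes.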
